A study of Mus musculus with 8 samples.

Results

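The genes of glycolysis and lactate export were followed in RNA from the vagal region of mouse embryos, the tissue at the level of somites 1 to 7, at embryonic day 9.5. They are 33 symbols: the glucose transporters, the enzymes from hexokinase to lactate dehydrogenase, the enzymes that set the level of the phosphofructokinase activator, the pyruvate dehydrogenase subunit Pdha1 with its 4 kinases, and the monocarboxylate transporters. The members were matched by symbol and took up 34 of the 55421 rows of the deposited table, because Aldoa is listed under 2 identifiers. The study compared 4 samples homozygous for the trex allele of Rdh10, Rdh10(trex/trex), with 4 wild type samples, called trex and wt here. Rdh10 makes retinaldehyde, the precursor of retinoic acid, and the trex allele arose in a chemical mutagenesis screen. No treatment or further allele is given for either genotype, and RNA was poly-A selected and made into stranded libraries. Nothing in the labels tells whether each sample was a single embryo or a pool, or which samples were littermates, and p-values then cover the variation among these 8 samples, part of which may be technical. Values are TPM, a transcript level scaled by gene length and library total, and they are listed in the order of replicates 1 to 4 throughout. The sample titles number the wt samples on from the trex samples. The replicate numbers of wt were assigned here in title order, so a shared number is not a pairing given in the labels.

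Glycolysis breaks glucose down to pyruvate in the cytosol, with a small yield of ATP that needs no oxygen. Lactate dehydrogenase turns pyruvate into lactate and so renews the NAD+ that the pathway uses, and monocarboxylate transporters carry lactate out of the cell. Pyruvate dehydrogenase sends pyruvate into mitochondria instead, and the pyruvate dehydrogenase kinases switch it off by phosphorylation. Many steps have several isoenzymes, and some of their genes are known targets of the hypoxia-inducible factor, which binds a short DNA motif with the core ACGTG or GCGTG. Young mammalian embryos are known for a high rate of glycolysis before the circulation is fully established.

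Promoter windows are shown for both lactate dehydrogenases and both monocarboxylate transporters, where a member called higher stood beside a member not called higher. Windows are also shown for Hk2 and Pfkfb3, which are among the 4 called members with the largest log2 differences. Each is the 250 bases before the annotated start in RefSeq's table for GRCm38.p6, written 5′ to 3′ in the direction of the gene. Capitals mark ACGTG or GCGTG on either strand, so that CACGT and CACGC are the same motifs on the opposite strand and CACGTG holds ACGTG on both strands.
Ldha (chr7:46845554-46845803, plus strand): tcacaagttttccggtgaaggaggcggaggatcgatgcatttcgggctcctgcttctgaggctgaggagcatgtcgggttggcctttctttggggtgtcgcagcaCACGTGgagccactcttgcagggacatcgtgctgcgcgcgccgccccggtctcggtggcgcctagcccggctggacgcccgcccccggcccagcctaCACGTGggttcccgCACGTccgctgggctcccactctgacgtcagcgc
Ldhb (chr6:142507958-142508207, minus strand): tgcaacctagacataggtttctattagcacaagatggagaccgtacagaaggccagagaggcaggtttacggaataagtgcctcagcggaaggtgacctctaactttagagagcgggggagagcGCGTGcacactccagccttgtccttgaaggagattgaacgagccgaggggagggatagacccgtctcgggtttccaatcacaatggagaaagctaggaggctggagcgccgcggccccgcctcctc
Slc16a3 (chr11:120948817-120949066, plus strand): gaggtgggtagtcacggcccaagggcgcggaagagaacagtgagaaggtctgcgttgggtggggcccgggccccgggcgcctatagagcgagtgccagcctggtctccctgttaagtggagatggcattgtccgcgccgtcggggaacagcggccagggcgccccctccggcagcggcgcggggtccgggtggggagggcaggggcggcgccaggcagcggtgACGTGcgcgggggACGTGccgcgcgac
Slc16a1 (chr3:104638414-104638663, plus strand): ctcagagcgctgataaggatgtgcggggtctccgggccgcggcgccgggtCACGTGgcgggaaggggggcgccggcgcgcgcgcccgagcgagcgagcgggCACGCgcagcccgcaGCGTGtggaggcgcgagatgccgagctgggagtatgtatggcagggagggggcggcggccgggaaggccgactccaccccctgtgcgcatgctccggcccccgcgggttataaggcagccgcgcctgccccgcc
Hk2 (chr6:82774455-82774704, minus strand): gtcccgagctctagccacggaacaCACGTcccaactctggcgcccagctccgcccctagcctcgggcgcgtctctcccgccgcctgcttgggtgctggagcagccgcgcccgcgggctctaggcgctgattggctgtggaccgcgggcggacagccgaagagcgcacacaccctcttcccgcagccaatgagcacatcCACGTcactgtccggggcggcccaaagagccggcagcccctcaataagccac
Pfkfb3 (chr2:11553930-11554179, minus strand): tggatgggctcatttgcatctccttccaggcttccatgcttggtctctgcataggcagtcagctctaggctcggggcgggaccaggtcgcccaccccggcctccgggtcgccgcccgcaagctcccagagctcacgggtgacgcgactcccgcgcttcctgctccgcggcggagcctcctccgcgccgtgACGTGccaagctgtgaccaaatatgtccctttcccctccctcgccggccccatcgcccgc

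At least 1 of the motifs lay in the window of 23 of the 32 members with an entry, against 38.6% of the first windows of 27025 genes. ACGTG was found in 12 of the 32 members and GCGTG in 16, against 16.6% and 28.2% of genes. The members called higher in trex held either motif in 11 of 14 windows, and the other members in 12 of 18. The Ldhb window, the one of a gene called lower, had 1 match, and Slc16a1, which was not called, had 4. Member windows were richer in G and C, with a median of 59% against 52% over the first windows of all genes, and the part of base composition in these counts was not tested. Slc2a3 had no entry. Bases just after the annotated start were found in a GENCODE transcript of the same gene for 27 of the 32 windows, though not for Ldha.

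Library depth, as whole reads recovered from the TPM values, ran from 20928981 in trex replicate 3 to 23648646 in trex replicate 1. Rdh10 itself stood at 106, 66.2, 62.7 and 69.0 TPM in trex, against 41.0, 36.3, 40.3 and 37.6 TPM in wt. Its transcript total does not read the trex allele, so it is no check of genotype. Y-linked genes summed to 162 TPM in wt replicate 2 and 158 TPM in wt replicate 3 and to at most 0.0662 TPM in each of the other 6 libraries, so the sexes are unevenly spread over the genotypes. Mitochondrially encoded genes took 2.61%, 7.15%, 4.82% and 4.50% of TPM in trex, against 6.73%, 7.74%, 7.16% and 7.95% in wt. Marker lists of neurons, endothelium, cardiomyocytes and primitive erythroid cells were all present, at 92.1 summed TPM or more in every library, with 2 of 6 endothelial markers called higher and none of the 7 tested liver and yolk sac markers called. The 5 macrophage markers summed to at most 3.28 TPM in any library.

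Of the 34 member rows, all of which passed the filter at a mean of 1 TPM, 16 were called higher in trex, 1 (Ldhb) was called lower and 17 were not called. For comparison, 4.94% of the 15717 tested genes were called higher, 3.77% were called lower and 8.71% were called in either direction. A call is an adjusted p below 0.05 in limma, fitted to log2(TPM + 1) across all tested genes, and every adjusted p of a gene below is limma's. The median log2 difference, trex minus wt, was 0.70 over the members and 0.04 over all tested genes, and it was above 0 for 29 of the 34. In 21 members all 4 trex libraries lay above all 4 wt libraries, which held for 12.9% of tested genes. In Ldhb and Bpgm all 4 lay below, as in 8.95% of tested genes, and 11 members overlapped. Summed over the members, the level was 17489, 9114, 11316 and 13341 TPM in trex, against 6786, 7065, 7244 and 7378 TPM in wt. In bulk tissue a change in the number of cells of a type and a change in RNA per cell cannot be told apart, for these genes as for any other.

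**Figure D1:**
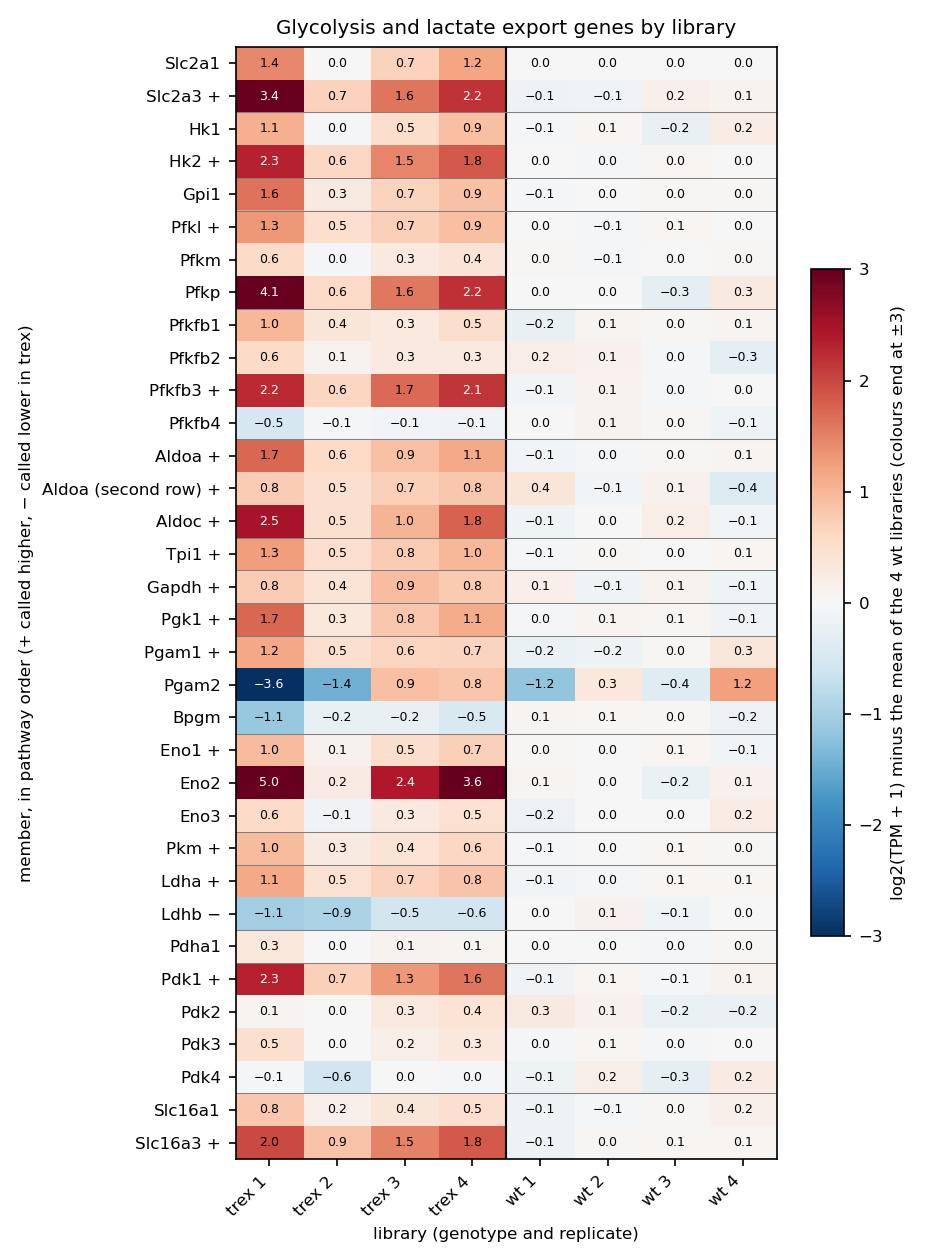
Difference in log2(TPM + 1) from the mean of the 4 wt libraries for the 34 member rows (down, in pathway order) in the 8 libraries (across, trex left of wt), with the value in each cell and a mark on called members. The trex columns are mostly above 0, most of all replicate 1 and least of all replicate 2, while Ldhb, Bpgm, Pfkfb4 and Pdk4 are below 0 in all 4 before rounding.

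The pathway starts at glucose uptake, where the rarer transporter rose. Slc2a3 (chr6:122727809-122801640), the high-affinity glucose transporter of neurons and placenta, had 1029, 157, 295 and 436 TPM in trex, against 87.2, 88.6, 107 and 104 TPM in wt. Every trex library was above every wt library, with replicate 1 far above the rest. The mean was 4.95-fold higher in trex, 479 ± 384 TPM against 96.8 ± 10.3 TPM in wt (SD, n = 4 each). Its log2 difference was 1.97 ± 0.47 (SE here and below), adjusted p = 0.0399. Slc2a1 (chr4:119108711-119137983), the widely expressed transporter and the more abundant of the pair, had 1278, 479, 762 and 1079 TPM in trex, against 469, 475, 481 and 468 TPM in wt. Most trex libraries were well above wt, but replicate 2 was level with it, and Slc2a1 was not called (log2 difference 0.83 ± 0.26, adjusted p = 0.0820).

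Hexokinase traps glucose in the cell as its phosphate. Hk2 (chr6:82725025-82774454), the inducible isoenzyme of muscle and many growing tissues, had 314, 97.7, 175 and 229 TPM in trex, against 62.1, 61.8, 65.1 and 63.0 TPM in wt. The wt libraries were nearly equal, and the lowest trex library was above all of them. It was 3.24-fold higher in trex (log2 difference 1.56 ± 0.30, adjusted p = 0.0201). Hk1, the isoenzyme found in most tissues, ran from 19.3 to 42.9 TPM in trex and from 16.8 to 23.6 TPM in wt, with no call at an adjusted p of 0.116. Gpi1, the single isomerase of the next step, had 514, 202, 266 and 306 TPM in trex, against 158, 166, 170 and 171 TPM in wt. The groups did not overlap, yet its adjusted p was 0.0567 and it was not called.

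Phosphofructokinase is the committed step, and its 3 isoenzymes differed. Pfkl, the liver type, was the most abundant and had 529, 304, 356 and 405 TPM in trex, against 214, 207, 226 and 217 TPM in wt. All trex libraries were above wt, the mean was 1.85-fold higher, and the log2 difference was 0.85 ± 0.14 (adjusted p = 0.0142). Pfkm, the muscle type, stayed within 70.3 to 108 TPM in trex and 69.0 to 74.4 TPM in wt, with no call at an adjusted p of 0.121. Pfkp, the platelet type, had 130, 10.3, 21.6 and 33.2 TPM in trex, against 6.51, 6.51, 5.23 and 8.13 TPM in wt. Its trex mean was 7.41-fold that of wt, but that mean rests largely on replicate 1, and with a log2 difference of 2.12 ± 0.63 it was not called (adjusted p = 0.0698).

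The Pfkfb enzymes make and break the sugar bisphosphate that activates phosphofructokinase. Pfkfb3 (chr2:11471433-11554077), the isoenzyme with the strongest bias towards making it, had 162, 52.6, 111 and 151 TPM in trex, against 31.8, 36.2, 32.7 and 33.7 TPM in wt. All 4 trex libraries were above wt, and 3 of them stood far above. It was 3.54-fold higher in trex (log2 difference 1.68 ± 0.31, adjusted p = 0.0180). The other 3 were weakly expressed and not called. Pfkfb1 ran from 11.0 to 18.6 TPM in trex and from 7.51 to 9.51 TPM in wt, Pfkfb2 from 4.10 to 6.07 TPM in trex and from 2.89 to 4.41 TPM in wt, and Pfkfb4 from 6.76 to 9.59 TPM in trex and from 9.18 to 11.0 TPM in wt. Their adjusted p-values were 0.0676, 0.200 and 0.310.

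**Figure D2:**
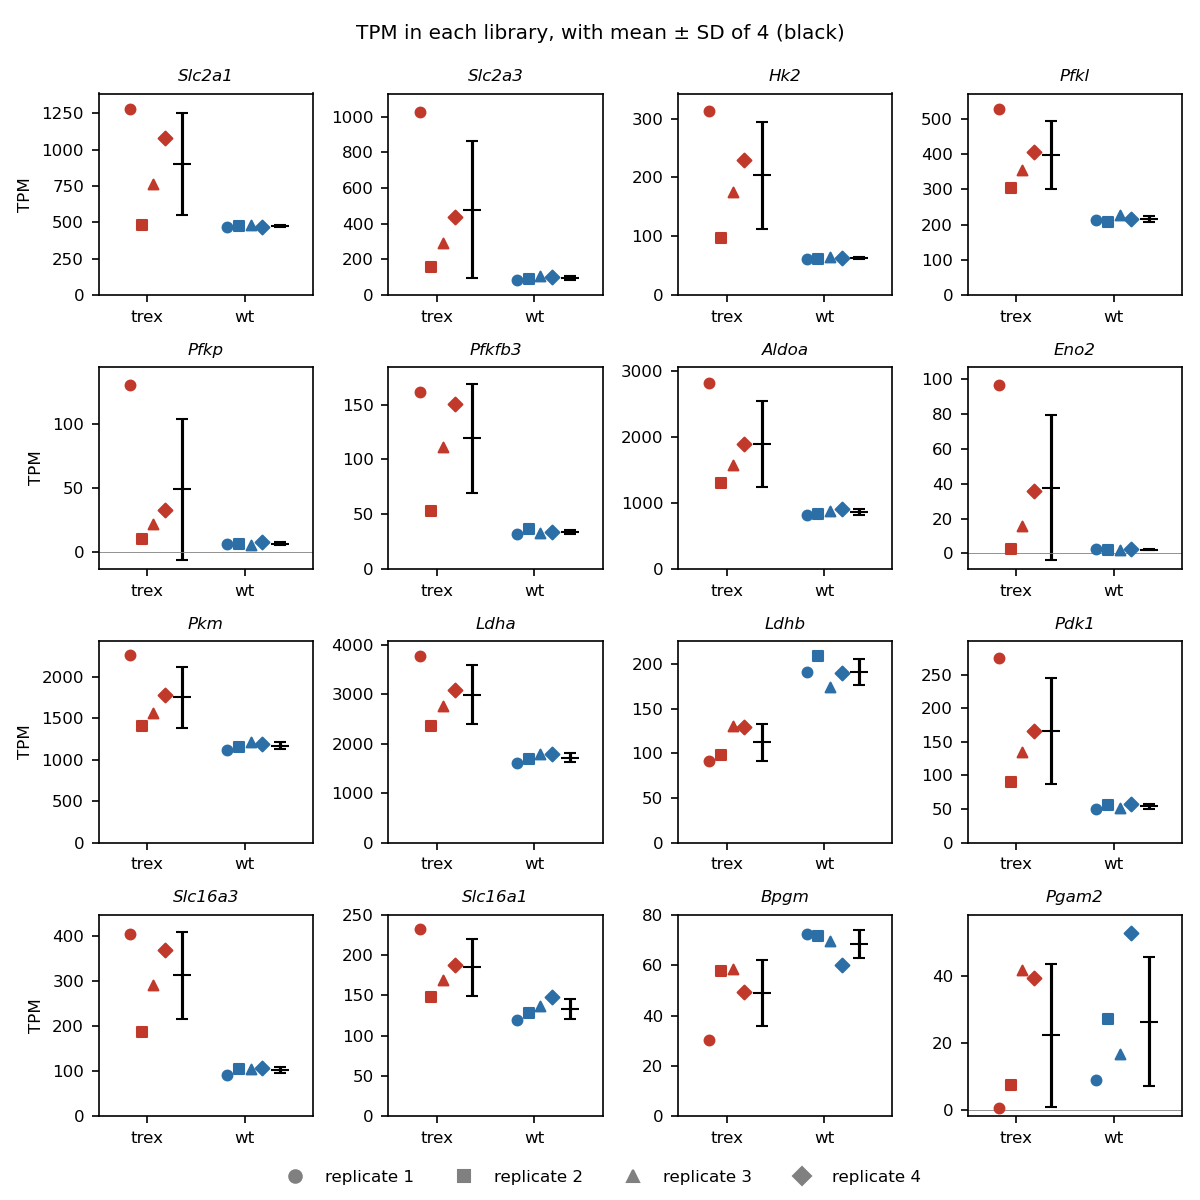
TPM of 16 members in each library, trex left of wt, with 1 marker shape per replicate number and the mean ± SD of the 4 libraries in black; axes differ between panels and include 0. In most panels trex replicate 1 (circle) is highest and trex replicate 2 (square) lowest of the trex libraries, and the wt libraries lie close together.

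Aldolase and triose phosphate isomerase complete the upper part of the pathway. Aldoa (ENSMUSG00000030695, chr7:126795234-126800751), the aldolase of muscle and most embryonic cells, had 2810, 1300, 1577 and 1892 TPM in trex, against 812, 832, 871 and 912 TPM in wt. No trex library reached down to the wt range, and the mean was 2.21-fold higher (log2 difference 1.09 ± 0.20, adjusted p = 0.0193). The second Aldoa row (ENSMUSG00000114515, chr7:126800790-126809108), beside the first on the same chromosome, had 24.7, 20.2, 24.1 and 25.8 TPM in trex, against 18.7, 13.5, 15.7 and 10.6 TPM in wt. It was called higher as well (log2 difference 0.69 ± 0.16, adjusted p = 0.0345), though on few reads, from 49 to 121 per library. Aldoc, the aldolase of brain, was scarce, at 26.3, 5.81, 8.96 and 15.7 TPM in trex, against 3.497, 3.84, 4.62 and 3.64 TPM in wt. It was 3.64-fold higher in trex with no overlap (log2 difference 1.44 ± 0.37, adjusted p = 0.0488). Tpi1, which interconverts the triose phosphates, had 2057, 1220, 1442 and 1713 TPM in trex, against 822, 870, 843 and 891 TPM in wt. The groups were far apart, with a 1.88-fold higher mean in trex (log2 difference 0.88 ± 0.14, adjusted p = 0.0122).

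The enzymes from Gapdh to Pkm make up the ATP-yielding lower part. Gapdh, which oxidises glyceraldehyde phosphate and is often used as a reference gene, had 46.1, 35.5, 51.1 and 46.3 TPM in trex, against 29.5, 24.5, 28.8 and 24.1 TPM in wt. It was 1.68-fold higher in trex with no overlap (log2 difference 0.72 ± 0.12, adjusted p = 0.0126). Of the stretches of 50 bases in its main coding transcript, 90.4% occurred in other genes, so its level and this difference are uncertain. Pgk1, the X-linked kinase of the first ATP-making step, had 218, 82.3, 116 and 144 TPM in trex, against 64.3, 69.4, 68.3 and 60.6 TPM in wt. All trex libraries were above wt, 2.13-fold in the mean (log2 difference 0.99 ± 0.25, adjusted p = 0.0424). Pkm, the pyruvate kinase of muscle and embryo, had 2257, 1405, 1561 and 1783 TPM in trex, against 1114, 1153, 1211 and 1185 TPM in wt. It too was higher in every trex library, by 1.502-fold in the mean (log2 difference 0.56 ± 0.13, adjusted p = 0.0366).

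Among the phosphoglycerate mutases, Pgam1 alone was called. Pgam1, the form of most tissues, had 163, 102, 113 and 115 TPM in trex, against 62.6, 65.0, 74.1 and 91.2 TPM in wt. The lowest trex library was above the highest wt library, and the mean was 1.68-fold higher (log2 difference 0.73 ± 0.16, adjusted p = 0.0308). Bpgm makes the bisphosphoglycerate that lowers the oxygen affinity of haemoglobin in red cells. Its level was 30.4, 57.9, 58.6 and 49.2 TPM in trex, against 72.3, 71.6, 69.7 and 60.1 TPM in wt. All trex values lay below wt, but Bpgm was not called (log2 difference -0.51 ± 0.19, adjusted p = 0.118). The 10 primitive erythroid markers summed to 3098, 9426, 15965 and 13981 TPM in trex, against 16195, 12622, 13635 and 7213 TPM in wt, and none was called. Trex replicate 1 was lowest in both Bpgm and these markers. The other trex libraries were below the wt range in Bpgm but within it in these markers. Pgam2, the muscle mutase, ran from 0.826 to 41.7 TPM in trex and from 8.98 to 52.9 TPM in wt (adjusted p = 0.598). The 9 cardiomyocyte markers spanned 226 to 2622 summed TPM in trex and 312 to 2671 summed TPM in wt, with none called, and the libraries low in them were low in Pgam2. The 8 skeletal muscle markers summed to 23.0 to 64.3 TPM in trex and 99.4 to 134 TPM in wt, with 2 of the 6 tested called lower. Whether these cell types have a part in either gene's values was not tested.

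Enolase has 3 isoenzymes here. Eno1, the general form, had 172, 97.0, 129 and 145 TPM in trex, against 90.5, 88.3, 92.0 and 83.5 TPM in wt. Its groups were separate but close, with a 1.53-fold higher mean in trex (log2 difference 0.58 ± 0.15, adjusted p = 0.0471). Eno3, known from striated muscle, had 245, 151, 201 and 226 TPM in trex, against 144, 162, 161 and 189 TPM in wt. It had the highest TPM of the 3, but this ranking is uncertain. Of the stretches of 50 bases in the main coding transcript, 72.2% occurred in other genes for Eno1 and none for Eno3. The groups overlapped and it was not called (adjusted p = 0.200). Eno2, the form named for neurons, had 96.8, 2.70, 15.7 and 36.0 TPM in trex, against 2.31, 2.14, 1.75 and 2.41 TPM in wt. It showed the highest fold of any member, 17.6, but trex replicate 2 was hardly above wt. With a log2 difference of 2.79 ± 0.83 it was not called (adjusted p = 0.0717). Summed markers of neurons were 92.1, 204, 206 and 160 TPM in trex, against 679, 672, 443 and 399 TPM in wt, and all 9 were called lower. In all 4 trex libraries Eno2 was above the wt range and these markers were below it.

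**Figure D3:**
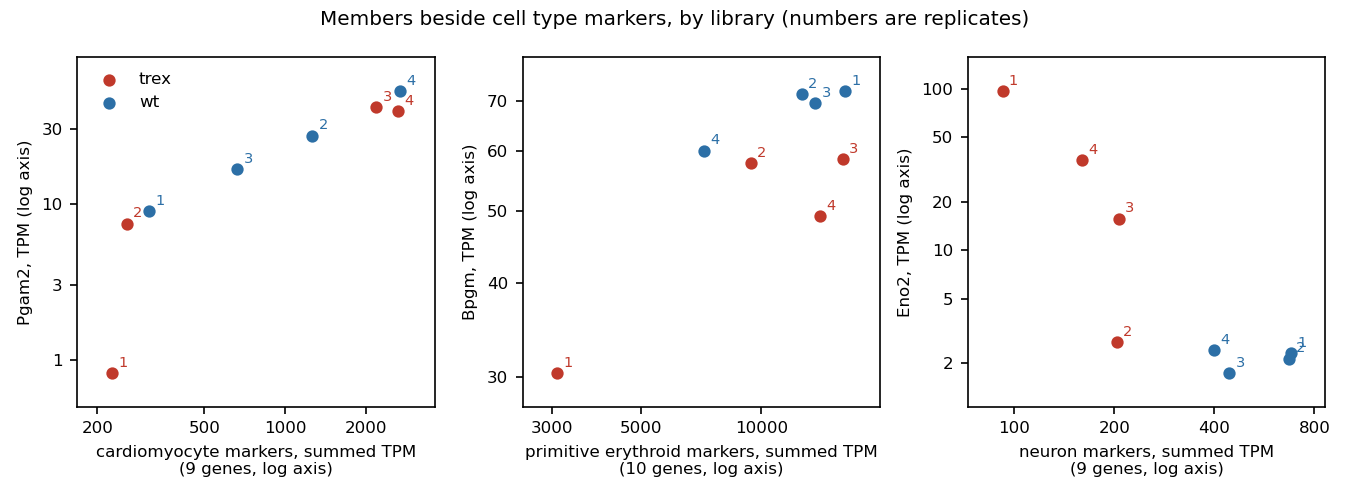
TPM of Pgam2, Bpgm and Eno2 in each library (vertical, log axis) beside the summed TPM of cardiomyocyte, primitive erythroid and neuron markers (horizontal, log axis), with trex in red, wt in blue and replicate numbers beside the points. Pgam2 is low where cardiomyocyte markers are low. Trex replicate 1 is lowest in Bpgm and in erythroid markers. The other trex libraries are below the wt range in Bpgm but within it in erythroid markers. Eno2 is highest in trex replicate 1, where neuron markers sum to 92.1 TPM.

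At the end of the pathway the lactate dehydrogenases moved apart. Ldha (chr7:46841475-46855627), the subunit that favours making lactate, had 3770, 2346, 2753 and 3084 TPM in trex, against 1614, 1686, 1790 and 1781 TPM in wt. The groups were well separated, with a 1.74-fold higher mean in trex, 2988 ± 602 TPM against 1718 ± 83.9 TPM in wt (log2 difference 0.78 ± 0.13, adjusted p = 0.0142). Ldhb (chr6:142490249-142507957), the heart subunit, which favours making pyruvate, had 91.2, 98.2, 130 and 129 TPM in trex, against 190, 209, 174 and 190 TPM in wt. Every trex library was below every wt library. The mean fell to 112 ± 20.4 TPM in trex, against 191 ± 14.3 TPM in wt, a ratio of 0.588 (log2 difference -0.78 ± 0.12, adjusted p = 0.0121). Ldhb made up 2.36%, 4.02%, 4.52% and 4.01% of the summed lactate dehydrogenase TPM in trex, against 10.6%, 11.0%, 8.86% and 9.65% in wt.

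Among the members, the RNA of a lactate exporter showed the firmest single rise. Slc16a3 (chr11:120948480-120960868), the lactate exporter of glycolytic cells, had 404, 186, 291 and 369 TPM in trex, against 92.5, 104, 106 and 107 TPM in wt. Even the lowest trex library was far above wt. The mean was 3.05-fold higher, 312 ± 96.8 TPM in trex against 102 ± 6.69 TPM in wt (log2 difference 1.54 ± 0.21). Its adjusted p of 0.00777 was the smallest of any member. Slc16a1, the widely expressed transporter that works in both directions, had 233, 148, 170 and 188 TPM in trex, against 120, 128, 136 and 148 TPM in wt. The lowest trex and highest wt libraries were almost equal, and it was not called (log2 difference 0.45 ± 0.13, adjusted p = 0.0628). Slc16a3 was the larger share of the pair in all trex libraries, from 55.6% to 66.2%, and the smaller in all wt libraries, from 41.9% to 44.9%. Bsg, the chaperone that brings both transporters to the membrane, is not a member. It had 1772, 757, 947 and 1157 TPM in trex, against 664, 644, 655 and 666 TPM in wt, with no overlap but no call (adjusted p = 0.0696).

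Of the kinases that switch off pyruvate dehydrogenase, Pdk1 alone was called. Pdk1 (chr2:71873224-71903858) had 274, 89.8, 135 and 166 TPM in trex, against 50.2, 56.8, 51.7 and 57.8 TPM in wt. All trex values were above wt, 3.07-fold in the mean (log2 difference 1.49 ± 0.28, adjusted p = 0.01995). Pdk3, the most abundant kinase in wt, had 130, 93.8, 105 and 115 TPM in trex, against 90.4, 96.5, 91.0 and 92.8 TPM in wt. The groups overlapped and the adjusted p was 0.114. Pdk2 ran from 8.19 to 11.3 TPM in trex and from 6.99 to 10.01 TPM in wt, and Pdk4 from 0.9899 to 1.93 TPM in trex and from 1.41 to 2.50 TPM in wt, neither called. Pdk1 thereby supplied 46.6% to 66.2% of the summed kinase TPM in trex and 32.9% to 36.1% in wt. Pdha1, the X-linked subunit that these kinases phosphorylate, had 291, 238, 251 and 249 TPM in trex, against 230, 234, 230 and 241 TPM in wt, with no call at an adjusted p of 0.204.

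**Figure D4:**
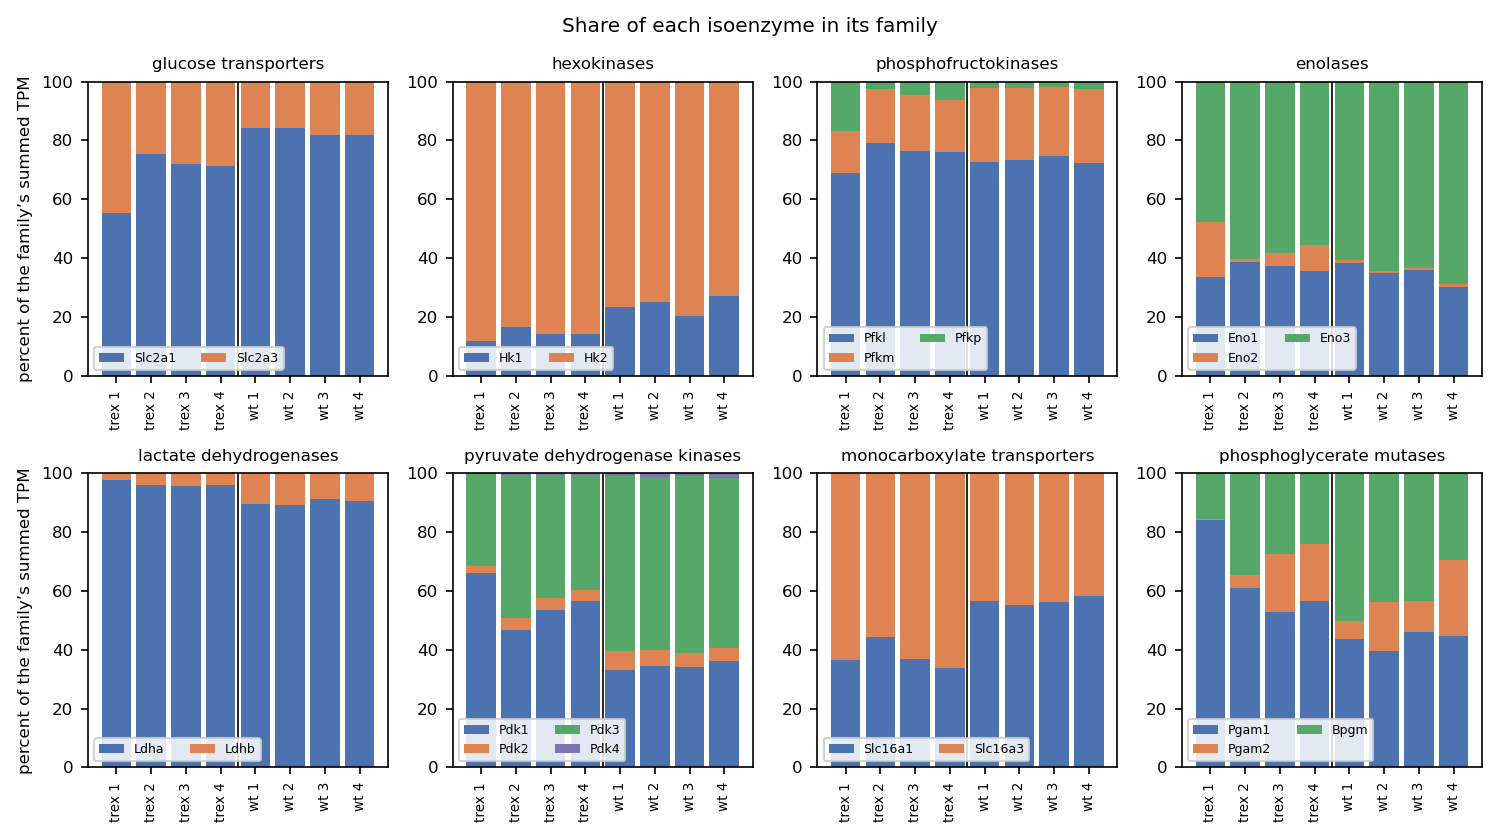
Share of each isoenzyme in the summed TPM of its family (percent, stacked bars) in each library of 8 families, trex left of wt. Slc2a3, Hk2, Pdk1 and Slc16a3 take larger shares in every trex library than in any wt library, and Ldhb takes 2.36% to 4.52% in trex and 8.86% to 11.0% in wt.

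Whether 2 isoenzymes of a step responded differently was examined in 16 pairs, which were chosen with earlier results of these data known. For each library the log2(TPM + 1) of 1 gene was subtracted from that of the other, and trex and wt were compared by an exact two-sided permutation test over samples, adjusted over the 16 pairs. In 11 pairs the groups did not overlap at all, which gives the smallest p that 4 against 4 allows, 0.0286, and an adjusted p of 0.0416. That adjusted p depends on how many of the chosen pairs reach the smallest p. Pairs that share a gene, such as those of Pdk1, are not independent, so these p-values are descriptive. By this measure Ldha moved 1.55 ± 0.23 further up than Ldhb (difference of log2 differences, SE), Slc2a3 1.14 ± 0.30 further than Slc2a1, Slc16a3 1.09 ± 0.14 further than Slc16a1, and Hk2 0.94 ± 0.16 further than Hk1. Pdk1 moved further than Pdk2, Pdk3 and Pdk4, by 1.29 ± 0.36, 1.24 ± 0.24 and 1.66 ± 0.27. Pfkfb3 exceeded Pfkfb2 by 1.36 ± 0.31, Pgam1 exceeded Bpgm by 1.25 ± 0.40, Pfkl exceeded Pfkm by 0.55 ± 0.07 and Eno1 exceeded Eno3 by 0.27 ± 0.11. The 5 pairs that missed the threshold were Pfkp with Pfkl (1.27 ± 0.59), Eno1 with Eno2 (-2.21 ± 0.83), Pfkfb4 with Pfkfb2 (-0.51 ± 0.22), Aldoa with Aldoc (-0.36 ± 0.22) and Pgam1 with Pgam2 (1.57 ± 1.26). Their adjusted p-values by the same exact test ran from 0.0653 to 0.257, which does not show that these isoenzymes moved alike.

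**Figure D5:**
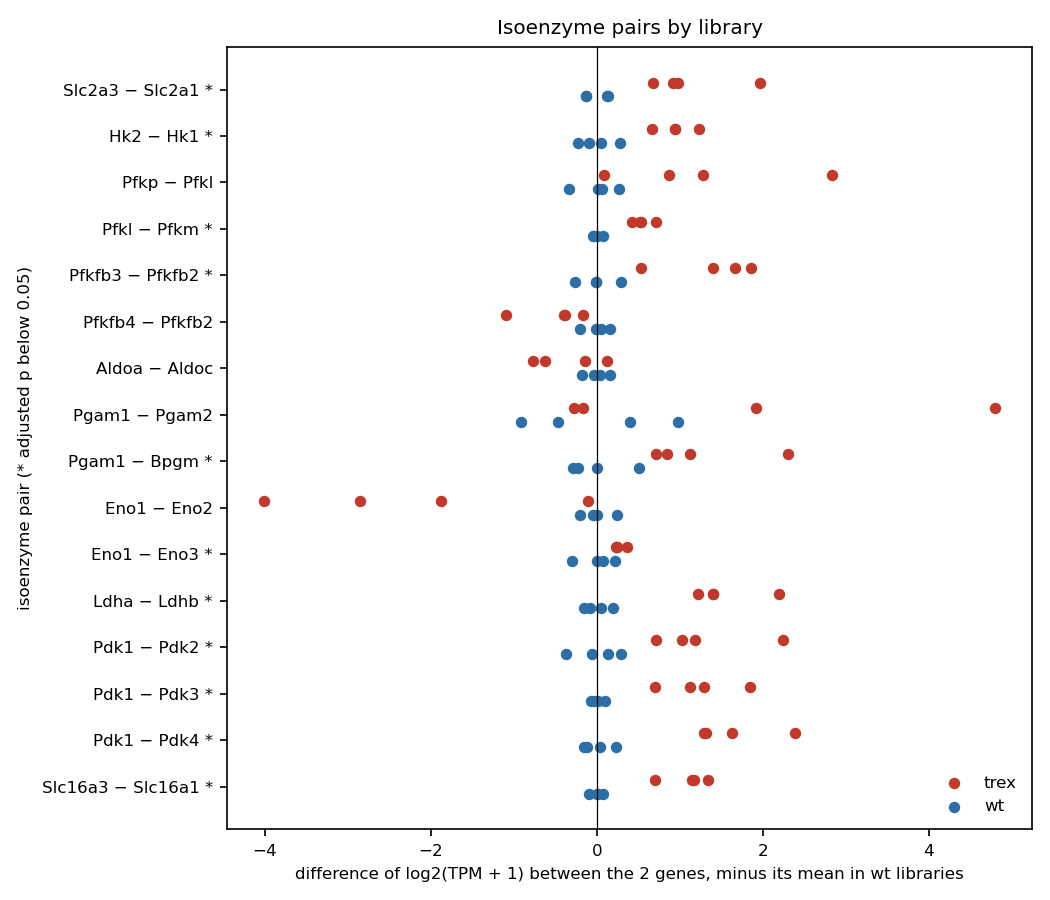
Difference in log2(TPM + 1) between the 2 genes of each isoenzyme pair in each library, minus its mean in wt (horizontal), with trex in red above wt in blue for each of 16 pairs; a star marks an adjusted p below 0.05. In the 11 starred pairs all 4 trex points lie to the right of all 4 wt points.

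The trex libraries did not differ from wt to the same degree. Relative to the wt mean, the 16 members called higher had a median fold of 2.87 in trex replicate 1, 1.42 in replicate 2, 1.81 in replicate 3 and 2.10 in replicate 4. Replicate 1 was highest, then 4, 3 and 2, in 23 of the 34 members, against 14.6% of all tested genes. The same order held in 14 of the 16 members called higher, against 37.5% of the 777 genes called higher. Replicate 2 was above the highest wt library in 21 of the 34 members, against 31% of tested genes. The share of TPM from mitochondrially encoded genes ran in the reverse order, lowest in trex replicate 1 and highest in trex replicate 2. With TPM recomputed without those genes, globins, Y-linked genes and Xist, 17 members and 8.62% of tested genes were called. What the wide spread among trex libraries reflects was not tested.

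The number of members called depended on single libraries. Omitting trex replicate 1, 2, 3 or 4 left 17, 27, 10 or 6 members called, in fits that called 10.5%, 18.5%, 3.66% or 2.35% of tested genes. Omitting wt replicate 1, 2, 3 or 4 left 7, 1, 6 or 10, in fits that called 2.96%, 1.28%, 2.56% or 3.86%. Slc16a3 alone was called in all 8 of these fits (adjusted p at most 0.0391). Pfkl, Tpi1, Gapdh, Ldha and Ldhb lost their call without wt replicate 2 only, at adjusted p-values between 0.0514 and 0.0594. Aldoa, Pfkfb3 and Pdk1 lost it without trex replicate 4 or wt replicate 1, 2 or 3, and Hk2 also without wt replicate 4, at adjusted p-values up to 0.0728. Slc2a3, Pgk1, Pkm and Aldoc lost it without any 1 library other than trex replicate 1 or 2 (up to 0.129), and Eno1 without any other than trex replicate 2 (up to 0.127). Pgam1 lost it without trex replicate 3 or 4 or wt replicate 1, 2 or 3 (up to 0.103), and the second Aldoa row in 6 of the 8 fits (up to 0.110). Without trex replicate 2, the 10 members gained included Slc2a1 (adjusted p = 0.00562), Gpi1 (0.0138), Pfkp (0.0173) and Eno2 (0.00565).

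Allowing for sex changed the calls as well. With sex, read from the Y-linked genes, as a term in the limma fit, none of the 34 members was called, 23 had an unadjusted p below 0.05, the lowest adjusted p was 0.0771, and 0.248% of all tested genes were called. All 34 members kept the sign of their difference in that fit, and the median log2 difference of the members was 0.69 with sex as a term and 0.70 without it. All 4 trex libraries were low in Y-linked genes, so that fit measures the genotype difference against wt replicates 1 and 4 alone. All 4 trex libraries lay above these 2 in 23 members, against 16.6% of tested genes, and below them in 2 members. The 23 include all 16 members called higher without the sex term. Whether the lost calls reflect sex or the fewer wt libraries was not tested.

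Several members share sequence with other genes, and how reads matching several places were counted is not given in the sources used here. Of the stretches of 50 bases in the main coding transcript, 90.4% occurred in transcripts of other genes for Gapdh, 72.2% for Eno1, 68.0% for Pgk1, 63.5% for Pfkfb2, 41.5% for Pgam1, 39.3% for Pkm, 27.0% for Ldhb, 25.3% for Gpi1, 16.9% for Pdha1, 16.6% for Ldha and 13.5% for Aldoa, and 7.51% or less for each of the other members. The levels of the genes named, their differences between trex and wt, and shares and ranks within their families are therefore uncertain. For Slc2a3, Hk2, Pfkfb3, Aldoc, Pdk1 and Slc16a3 no such stretch was found elsewhere.

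Genes of related pathways were read from the same fit, which called 4.94% of tested genes higher and 3.77% lower. Of 16 tested genes among other glycolytic isoenzymes, sugar transporters and their partners, none was called higher and 1 was called lower. Their log2 differences ran from -2.80 to 1.39, with a median of 0.09. The highest was that of Pgm1, whose groups did not overlap but which was not called (adjusted p = 0.0568). The gene called lower was Hk3, a hexokinase of blood cells, on as few as 3 reads in a trex library. It had 0.141, 0.566, 0.410 and 0.370 TPM in trex, against 8.90, 10.6, 8.56 and 6.40 TPM in wt (log2 difference -2.80 ± 0.17, adjusted p = 0.000225). No gene was called among 9 of the pyruvate dehydrogenase complex and pyruvate entry, 16 of the tricarboxylic acid cycle, 7 of the pentose phosphate pathway and 4 of gluconeogenesis. Their median log2 differences were -0.11, -0.06, -0.01 and 0.63. In Pdhb, Dld, Pdhx, Rpia, Rpe and Taldo1 all 4 trex libraries lay below all 4 wt libraries, as in 8.95% of tested genes. In Pck2 all 4 lay above, as in 12.9%, and the other tested genes of these lists overlapped. Among 23 low oxygen genes outside glycolysis, 6 were called higher and none lower, with a median of 1.06. Bnip3, which acts in mitophagy, had 458, 119, 245 and 364 TPM in trex, against 62.3, 78.8, 62.2 and 61.5 TPM in wt (log2 difference 1.99 ± 0.36, adjusted p = 0.0171). Egln3, an oxygen-sensing prolyl hydroxylase, had 146, 31.5, 81.4 and 131 TPM in trex, against 19.2, 19.3, 15.2 and 15.5 TPM in wt (log2 difference 2.23 ± 0.42, adjusted p = 0.0198). Ddit4, an inhibitor of mTOR signalling, had 1336, 165, 757 and 1222 TPM in trex, against 97.8, 104, 89.2 and 88.1 TPM in wt (log2 difference 2.82 ± 0.58, adjusted p = 0.0254). In each of these 3 genes trex replicate 1 was highest and trex replicate 2 lowest of the trex libraries, and the groups did not overlap. These calls also depended on single libraries. With 1 library left out at a time, Bnip3 lost its call in 4 fits and Egln3 in 5. Ddit4 and each of the other called genes of this list lost theirs in 6. Hif1a, the oxygen-regulated subunit of the factor, had 122, 163, 151 and 141 TPM in trex, against 159, 172, 160 and 181 TPM in wt, with overlap, and was not called (adjusted p = 0.138). Only RNA was measured, so these values do not give the level of its protein.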

How the data were processed

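RNA of 4 trex and 4 wt samples was measured by poly-A stranded RNA-seq, per the labels' protocols. The deposited values are TPM, made by the authors, 1 column per sample and each scaled to the same total. CASAVA 1.8.2, STAR and mm10 were used, per the submitters' processing notes. The read counter was not given in the sources used here, nor were its strand setting and annotation. Gene names, coordinates and exonic lengths came from GENCODE M21, of the same assembly, which held 55240 of the 55421 identifiers. TPM keeps no depth. Multiplied by exonic length, 98.7% to 98.9% of low values, up to 200 reads, were whole within 0.001 read, which gave 20928981 to 23648646 reads per library. These served to state depth and for 1 added alternative.

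From the TPM values, limma 3.58.1 in R 4.3.3 was fitted to log2(TPM + 1), which understates the change of scarce genes, with genotype as the only term and an eBayes trend. The 15717 genes with a mean of at least 1 TPM were tested, two-sided, with Benjamini-Hochberg adjustment over all of them. Folds are ratios of mean TPM. Isoenzyme pairs were compared by exact permutation over samples. The fit was run on simulated data in which both groups had the spread of the wt libraries. The trex libraries spread more widely, so that run does not show how the fit performs here. Motifs and shared sequence were searched in Python 3.11.15.

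The members, pairs and gene lists were chosen with earlier results of these data known, so their directions are not independent evidence. All members are accounted for. Values in every library are given for called members and for the most abundant of each family, and for at most 3 called genes of each other list. Gpi1, Pfkp, Eno2, Bpgm, Pdha1, Bsg, Pgm1 and Hif1a were singled out after their values were seen, and promoters were printed for 6 members only. The genes of related pathways named for groups that did not overlap, such as Pdhb and Pck2, were also picked after their values were seen. Alternatives were pseudocounts of 0.1 and 5, other filters and scalings, other variance models, array weights, the replicate block, sex as a term, leaving out each sample, and, chosen after seeing the data, voom on recovered reads.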

Additional observations from a re-analysis of the deposited data

Results flagged for a closer look

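Of 82 sets of 4 libraries examined (the TPM of each member and some shares within families, each in 1 genotype), 2 held a library set apart from the other 3 by a larger part of the whole range than Dixon's critical value for 4 samples. Chance alone sets about 1 in 20 such groups apart. Pfkfb4 was 6.76 TPM in trex replicate 1, below the 9.36 to 9.59 TPM of the other trex libraries. Pdk4 was 0.9899 TPM in trex replicate 2, below the 1.83 to 1.93 TPM of the other trex libraries.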

How the results depend on the processing

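Of the members, 17 were called in the fit reported. The number was 10 with no filter on low values (2.27% of genes called), 29 with array weights (35.1%) and 0 with sex as a covariate, and 1 to 27 when 1 library was left out. It lay between 12 and 17 with other pseudocounts, filters, scalings and variance models and with voom. With the replicate number as a block it was 10 (4.37% of genes). The wt numbers were assigned here, so this block is not a pairing given in the sample titles. Trex and wt libraries given the same number here deviated together with correlations of 0.16, -0.02, -0.0045 and 0.25. Of the 4 trex libraries, 2 correlated best with the wt library given their number. The numbers were not taken to pair the samples. Over all tested genes the split of higher to lower calls was 777 to 592 here, 692 to 692 with median-of-ratios rescaling and 633 to 739 with quantile normalization. It was 657 to 694 without globins, mitochondrially encoded genes, Y-linked genes and Xist. Isoenzyme pairs called stayed at 11 under other pseudocounts and scalings and were 0 to 13 when 1 library was left out. The adjustment over 16 pairs passes at least 10 pairs at the smallest p or none. The log2 difference of Pgam2, trex minus wt, not called, changed sign with array weights (0.61) and ranged from -1.42 to 0.10 with 1 library left out, and the difference between Aldoa and Aldoc was 0.0903 with a pseudocount of 5. The cause was not tested.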
